A study of Mus musculus with 8 samples.

Results

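The 10 genes described here encode receptors for neuropeptides and were measured in ribosome-associated mRNA pulled down from parvalbumin-expressing (PV+) interneurons: the somatostatin receptors *Sstr1*, *Sstr2*, *Sstr3* and *Sstr4*, the neuropeptide Y receptor *Npy1r*, the cholecystokinin receptor *Cckbr*, the opioid receptors *Oprd1* and *Oprm1*, the nociceptin receptor *Oprl1* and the vasoactive intestinal peptide receptor *Vipr1*. They were taken by gene symbol from the 45706 genes measured, and all 10 passed the filter on low counts, which kept 17495 genes. PV+ interneurons are the fast-spiking inhibitory cells of the cortex. Neuropeptides are released by neighbouring interneurons and act through G-protein-coupled receptors. Somatostatin, neuropeptide Y, opioid and nociceptin receptors couple to Gi/o proteins, which lower cyclic AMP, open inwardly rectifying potassium channels and restrain transmitter release. The CCKB receptor couples to Gq, and the VIP receptor VPAC1, encoded by *Vipr1*, couples to Gs and raises cyclic AMP.

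Ribosome-associated mRNA was sequenced from the somatosensory cortex of PvalbFlp/+;Neurod6Cre/+ mice, in 4 samples after CNO and 4 after vehicle. Mice of both groups carried both alleles and an adeno-associated virus (AAV) with the construct flox-fdio-HA-RPL10a-T2A-myc-hM3Dq, so the vehicle samples share the tagged ribosomal protein RPL10A and the designer receptor hM3Dq. By the series description it was given on postnatal day 1, which is the first day of the range in the methods. The virus is driven by the human synapsin promoter, is switched on by Flp in *Pvalb*-expressing cells and is switched off by Cre in *Neurod6*-expressing pyramidal cells. CNO, the ligand of hM3Dq, was given at 1 mg/kg in 5 injections over 48 h. The age at collection was postnatal day 42 to 70 by the series description and 44 to 70 by the methods. Each sample pooled the cortex of 4 brains, so that spread between samples is spread between pools. The question behind the comparison was which transcripts of PV+ interneurons respond to raised activity of these cells. In bulk samples of this kind, fewer cells of a type and less RNA per cell cannot be told apart.

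The libraries held 44064138 to 49413277 counts on genes. At these depths 3 counts correspond to 0.0607 to 0.0681 CPM (counts scaled to the same library size), the lowest level taken as measurable, which covers counting error only. *Pvalb*, the gene that defines these cells, had a mean of 907 TPM, a scale that corrects counts for the length of the transcripts, and *Slc17a7*, the vesicular glutamate transporter of pyramidal cells, had 433 TPM. All 12 genes of a PV+ interneuron marker list and all 12 of a pyramidal marker list were tested, so that transcripts of pyramidal cells were measured beside those of the labelled cell type and a receptor's level was not assigned to either. A marker index was calculated as the mean log2 CPM of the PV+ list minus that of the pyramidal list. It was 1.56, 0.80, 1.35 and 1.97 in CNO replicates 1 to 4 and -0.40, 0.94, 1.37 and 1.25 in vehicle replicates 1 to 4. Vehicle replicate 1 stood apart from the other 7 libraries, with a summed PV+ marker level of 1245 TPM against up to 3282 TPM in the other vehicle libraries and 2663 to 4137 TPM in the CNO libraries. The summed pyramidal marker level was 1425 to 1971 TPM in the CNO and 1613 to 2304 TPM in the vehicle libraries. *Fos*, an immediate early gene, was 1.93 higher after CNO on the log2 scale (SE 0.220, adjusted p = 0.0520 by edgeR's quasi-likelihood test), without overlap between the groups.

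Receptors of one family share stretches of coding sequence, and short reads that lie within such a stretch can be shared between genes. The longest run shared by any pair of the 10 coding sequences had 23 bases and joined *Sstr1* and *Sstr3*. The longest run shared by the opioid receptors *Oprd1* and *Oprm1* had 20 bases. These pairs are shown because they hold the longest shared run of each family. Capitals mark the shared run within 30 bases of flank on either side, on the coding strand, from GENCODE transcripts on GRCm38. Positions count from 1 at the first base of the start codon.
*Sstr1*, shared run at coding positions 955 to 977: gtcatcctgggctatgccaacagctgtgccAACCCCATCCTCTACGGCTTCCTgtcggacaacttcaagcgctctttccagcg
*Sstr3*, shared run at coding positions 952 to 974: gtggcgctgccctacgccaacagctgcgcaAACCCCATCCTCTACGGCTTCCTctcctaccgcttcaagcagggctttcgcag
*Oprd1*, shared run at coding positions 382 to 401: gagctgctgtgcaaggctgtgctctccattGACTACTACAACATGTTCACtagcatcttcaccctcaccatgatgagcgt
*Oprm1*, shared run at coding positions 439 to 458: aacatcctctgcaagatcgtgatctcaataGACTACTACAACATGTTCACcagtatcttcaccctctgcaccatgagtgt
The flanks outside the capitals differ between the members of each pair. No stretch of 31 bases in the transcripts of *Sstr1*, *Sstr2*, *Sstr4*, *Cckbr*, *Oprl1* or *Vipr1* recurred in transcripts of another gene. The share of such stretches found elsewhere was 0.257% for *Sstr3*, 0.451% for *Oprd1*, 0.957% for *Oprm1* and 4.17% for *Npy1r*, the highest of the 10.

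Neuronal activity is known to act on transcription through CREB, which binds the cyclic AMP response element, and through dimers of FOS and JUN proteins, which bind the AP-1 motif. RefSeq promoters on GRCm38.p6, from 250 bases before to 50 bases after a transcription start, were listed for 9 of the 10 receptors, with 14 promoters in all, and none was listed for *Sstr1*. The cyclic AMP response element, searched as TGACGTCA, was in 1 of these 14 promoters and in 1.79% of all 32851 promoters. The AP-1 motif, searched as TGANTCA, was in 1 of 14 and in 7.81% of all promoters. Both motifs read the same on either strand, and they did not overlap in any of these promoters. The promoters with a match belong to *Sstr2* for the cyclic AMP response element and to *Npy1r* for the AP-1 motif, and they are shown to place these letters. Capitals mark the motif.
*Sstr2*, chr11:113619077-113619376, plus strand, motif start at -58 from the transcription start: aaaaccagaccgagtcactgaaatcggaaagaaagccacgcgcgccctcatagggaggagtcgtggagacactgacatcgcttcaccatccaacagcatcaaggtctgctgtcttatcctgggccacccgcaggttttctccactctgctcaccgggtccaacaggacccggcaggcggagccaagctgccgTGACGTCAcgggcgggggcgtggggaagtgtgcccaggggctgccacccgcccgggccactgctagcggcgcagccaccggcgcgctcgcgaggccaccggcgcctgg
*Npy1r*, chr8:66697172-66697471, plus strand, motif start at -231 from the transcription start: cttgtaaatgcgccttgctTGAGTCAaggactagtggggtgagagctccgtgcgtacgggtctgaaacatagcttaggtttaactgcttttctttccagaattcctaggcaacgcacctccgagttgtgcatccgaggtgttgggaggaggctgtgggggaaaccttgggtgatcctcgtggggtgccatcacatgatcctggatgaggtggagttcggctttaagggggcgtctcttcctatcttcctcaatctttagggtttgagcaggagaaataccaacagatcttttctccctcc
A match describes these letters only. The activity of either promoter was not measured.

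Receptor levels were compared per transcript length, as TPM over all 8 libraries. *Cckbr*, the brain receptor for cholecystokinin, had the highest level, 52.7 ± 7.45 TPM (mean ± SD, n = 8). *Oprl1*, the receptor for nociceptin, followed with 32.0 ± 4.12 TPM. The Gi-coupled somatostatin receptors *Sstr4* and *Sstr2* had 20.9 ± 2.45 and 16.8 ± 3.27 TPM. The next 5 receptors in order were *Npy1r* at 13.6 ± 2.69 TPM, *Oprd1* at 13.1 ± 2.22 TPM, *Sstr1* at 10.3 ± 1.84 TPM, *Vipr1* at 9.34 ± 1.47 TPM and *Sstr3* at 8.98 ± 1.53 TPM. *Oprm1*, the mu-opioid receptor, was the lowest at 0.561 ± 0.267 TPM and the only one of the 10 with a mean under 1 TPM. Among the 17495 genes tested the mean TPM of *Cckbr* lay at the 78.9 percentile, that of *Sstr3* at the 43.0 percentile and that of *Oprm1* at the 7.14 percentile.

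**Figure D1:**
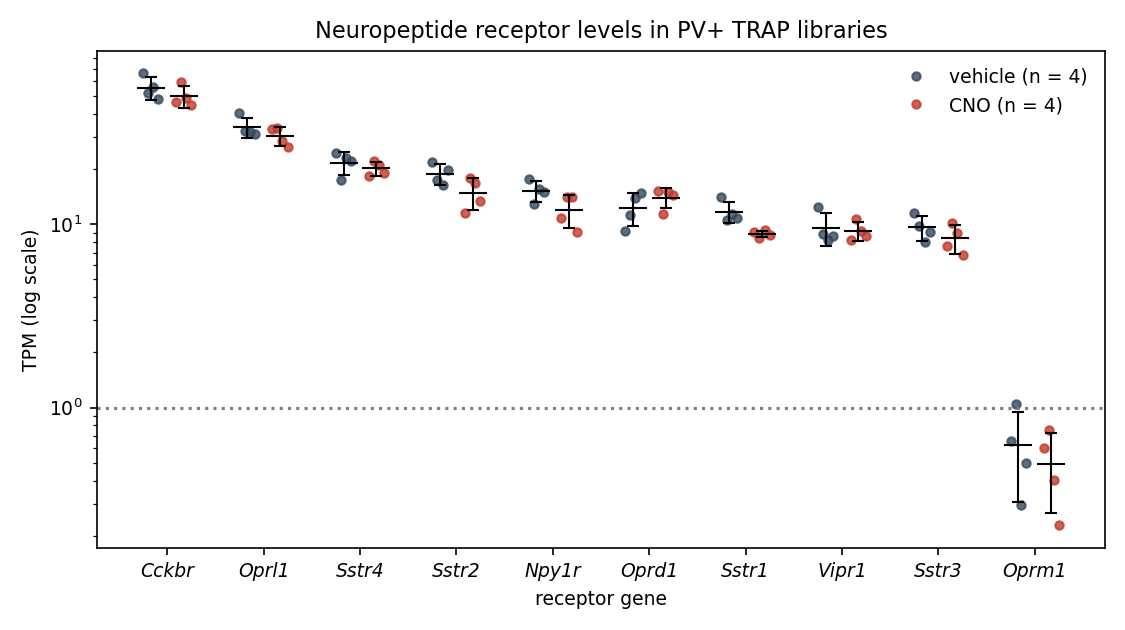
Level of each receptor transcript in TPM on a log axis, by gene in order of the mean over 8 libraries. Points are single libraries, horizontal bars with whiskers are the mean ± SD of each group of 4, and the dotted line marks 1 TPM. Cckbr is the highest in every library, and Oprm1 is the lowest, with 7 of its 8 points under the line.

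Neighbours in this order were compared within each library by a two-sided exact sign-flip permutation test of the difference in log2(TPM + 1), with Benjamini-Hochberg adjustment over the 9 neighbour pairs. The order itself came from the same values. *Cckbr* exceeded *Oprl1* in 8 of 8 libraries, by 0.70 ± 0.112 on the log2 scale (SD over libraries, adjusted exact permutation p = 0.0176). *Oprl1* exceeded *Sstr4* in 8 of 8 libraries, by 0.59 ± 0.173 (adjusted exact permutation p = 0.0176). *Sstr4* exceeded *Sstr2* in 7 of 8 libraries, by 0.31 ± 0.207 (adjusted exact permutation p = 0.0281), and this pair missed the threshold without CNO replicate 1, 3 or 4 or vehicle replicate 3 or 4, each with an adjusted exact permutation p of 0.0563. *Sstr2* exceeded *Npy1r* in 8 of 8 libraries, by 0.29 ± 0.154 (adjusted exact permutation p = 0.0176). From *Npy1r* down to *Sstr3* no neighbours passed the threshold. Only neighbours were tested, so that *Npy1r* and *Sstr3*, with means of 13.6 and 8.98 TPM, were not compared with each other. The adjusted exact permutation p was 0.812 for *Npy1r* against *Oprd1*, 0.105 for *Oprd1* against *Sstr1*, 0.221 for *Sstr1* against *Vipr1* and 0.334 for *Vipr1* against *Sstr3*. Without vehicle replicate 1 *Oprd1* exceeded *Sstr1* by 0.45 (adjusted exact permutation p = 0.0281), and without CNO replicate 2 *Sstr1* exceeded *Vipr1* by 0.18 (adjusted exact permutation p = 0.0281). *Sstr3* exceeded *Oprm1* in 8 of 8 libraries, by 2.68 ± 0.188 (adjusted exact permutation p = 0.0176).

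CNO was then compared with vehicle for each receptor by edgeR's quasi-likelihood test, with Benjamini-Hochberg adjustment over all 17495 genes. None of the 10 receptors passed an adjusted p of 0.05, and neither did any other gene (0% of genes tested). At an unadjusted p under 0.05 the test gave 1 receptor, *Sstr1*, against 716 genes in all (4.09%), and it was among the 464 with lower values after CNO (2.65%). The likelihood ratio test with robust dispersion called 15 genes and the Wald test of DESeq2 called 11, none of them a receptor of the list, while limma-voom called 0. *Sstr1* was also the only receptor whose groups did not overlap, which held for 2.42% of all genes in either direction and for 1.63% with CNO lower. Log2 fold changes were below 0 for 8 of the 10 receptors, against 49.6% of all genes, with a median of -0.12 for the receptors and 0.0014 over all genes. The median of the receptors was -0.068 without vehicle replicate 1, -0.069 without CNO replicate 4 and -0.0024 with the marker index as a covariate.

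**Figure D2:**
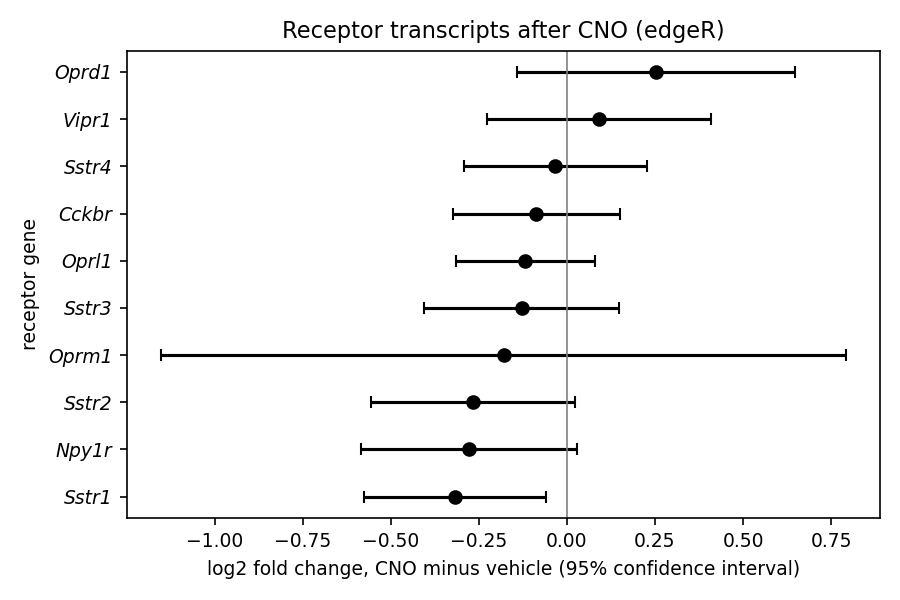
Log2 fold change of each receptor transcript, CNO minus vehicle, with its 95% confidence interval from edgeR's quasi-likelihood fit on 4 libraries a group. The interval of Sstr1 lies below 0, and the intervals of the other 9 receptors include 0.

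*Sstr1* (chr12:58211772-58214444, plus strand, GRCm38) encodes a somatostatin receptor and had the largest difference relative to its error. Its level was 7.31, 6.42, 7.39 and 7.07 CPM in CNO replicates 1 to 4. In vehicle replicates 1 to 4 it was 9.91, 8.20, 8.99 and 8.05 CPM. Each CNO library lay below each vehicle library, with 345, 304, 345 and 336 counts against 443, 384, 433 and 399 counts in the same order. The group means were 7.05 ± 0.439 and 8.79 ± 0.853 CPM (SD, n = 4 each). This gave a log2 fold change of -0.32 (SE 0.117, 95% interval -0.58 to -0.060), with an unadjusted p of 0.0202 and an adjusted p of 0.817 by the quasi-likelihood test. A two-sided exact permutation test over the 70 assignments of samples gave p = 0.0286, the smallest that 4 against 4 samples allow, and an adjusted p over all genes of 0.848. Without vehicle replicate 1, its highest library, the log2 fold change was -0.26 (unadjusted p = 0.0468, quasi-likelihood test). Without CNO replicate 2, the lowest, it was -0.28 (unadjusted p = 0.0503), and with the marker index as a covariate it was -0.27 (unadjusted p = 0.0506).

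*Sstr2* (chr11:113619342-113626028, plus strand) encodes another somatostatin receptor, and its gene lies within the span of *Slc39a11* on the opposite strand without sharing exon bases. It had 10.7, 14.7, 15.4 and 12.4 CPM in CNO replicates 1 to 4 and 17.4, 15.1, 14.5 and 17.03 CPM in vehicle replicates 1 to 4. CNO replicates 1 and 4 were the lowest, and CNO replicates 2 and 3 overlapped with the vehicle libraries. Between the groups *Sstr2* had a log2 fold change of -0.27 (SE 0.131, 95% interval -0.56 to 0.022, unadjusted p = 0.0666, adjusted p = 0.817, quasi-likelihood test). *Sstr3* (chr15:78537008-78544685, minus strand) encodes a somatostatin receptor that is known to sit in neuronal cilia. It had 13.6, 16.7, 16.1 and 12.6 CPM in the CNO and 18.5, 16.6, 14.1 and 15.3 CPM in the vehicle replicates. Its groups overlapped over most of their range, and the log2 fold change was -0.13 (95% interval -0.41 to 0.15, adjusted p = 0.818). *Sstr4* (chr2:148395344-148396767, plus strand) is a gene of a single exon and the most abundant of the 4 somatostatin receptors. It had 10.8, 12.1, 12.5 and 11.5 CPM in the CNO and 12.8, 9.80, 13.3 and 12.1 CPM in the vehicle replicates. Vehicle replicate 2 was the lowest and vehicle replicate 3 the highest of the 8 libraries, and the log2 fold change was -0.033 (95% interval -0.29 to 0.23, adjusted p = 0.946).

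**Figure D3:**
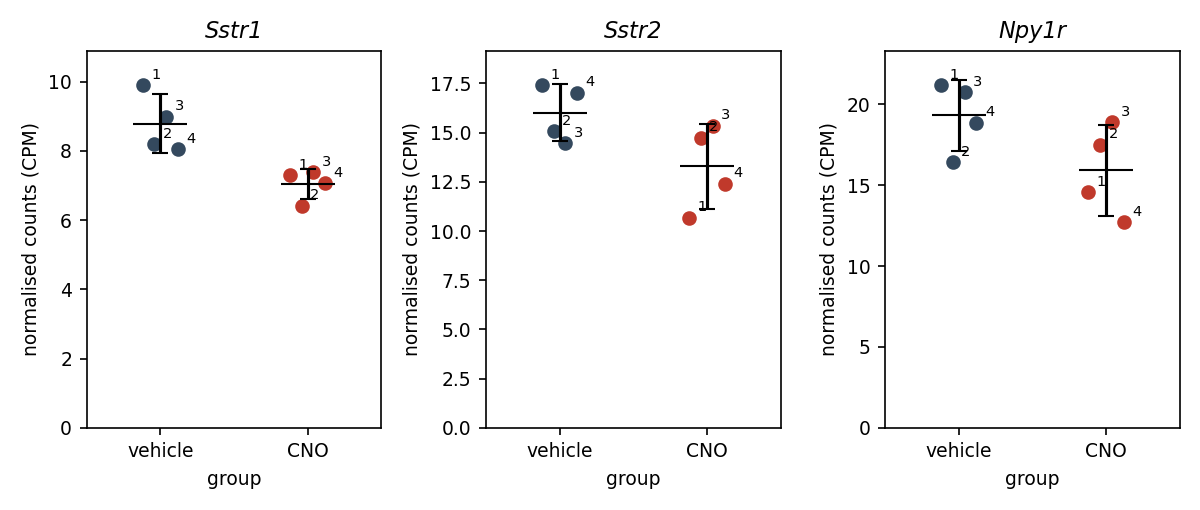
Normalised counts (CPM) of Sstr1, Sstr2 and Npy1r in each library, with axes that start at 0. Points carry the replicate number, and bars with whiskers show the mean ± SD of 4 libraries. The groups are separate for Sstr1 and overlap for Sstr2 and Npy1r.

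*Npy1r* (chr8:66697192-66706792, plus strand) encodes the Y1 receptor for neuropeptide Y. It had 14.6, 17.5, 18.9 and 12.7 CPM in CNO replicates 1 to 4 and 21.2, 16.4, 20.8 and 18.9 CPM in vehicle replicates 1 to 4. CNO replicates 4 and 1 were the lowest, and CNO replicates 2 and 3 lay among the vehicle libraries. Between the groups *Npy1r* had a log2 fold change of -0.28 (SE 0.139, 95% interval -0.59 to 0.029, unadjusted p = 0.0714, adjusted p = 0.817, quasi-likelihood test). *Cckbr* (chr7:105425731-105470898, plus strand) had 50.8, 60.7, 53.3 and 50.9 CPM in the CNO and 65.0, 54.4, 60.5 and 49.3 CPM in the vehicle replicates. The highest library was vehicle replicate 1 and the lowest was vehicle replicate 4, so that the vehicle libraries spanned the CNO libraries. *Cckbr* had a log2 fold change of -0.087 (95% interval -0.32 to 0.15, adjusted p = 0.835). *Vipr1* (chr9:121642716-121672954, plus strand) had 14.2, 18.1, 16.9 and 12.1 CPM in the CNO and 17.2, 14.0, 13.6 and 12.9 CPM in the vehicle replicates. CNO replicate 2 was the highest and CNO replicate 4 the lowest of the 8. The log2 fold change of *Vipr1* was 0.091 (95% interval -0.23 to 0.41, adjusted p = 0.870), and with the marker index as a covariate it was 0.27 (unadjusted p = 0.0209, adjusted p = 0.999). On log2(TPM + 1) with limma it was -0.038, where the median over all genes was -0.063. With an offset for effective transcript length on the counts it was 0.032. Without CNO replicate 2 the log2 fold change of *Vipr1* was 0.00079, and without vehicle replicate 1 it was 0.19. Without vehicle replicate 1 *Sstr3* and *Cckbr* had log2 fold changes of -0.059 and -0.023.

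*Oprd1* (chr4:132110726-132144486, minus strand) encodes the delta-opioid receptor, which binds enkephalins, and was the receptor with the largest positive difference. It had 27.7, 19.2, 27.3 and 27.5 CPM in CNO replicates 1 to 4 and 15.0, 19.6, 25.2 and 25.6 CPM in vehicle replicates 1 to 4. CNO replicates 1, 3 and 4 were the highest libraries, vehicle replicate 1 was the lowest, and CNO replicate 2 lay below 3 vehicle libraries. The log2 fold change was 0.25 (SE 0.179, 95% interval -0.14 to 0.65, adjusted p = 0.817, quasi-likelihood test), and without vehicle replicate 1 it was 0.11. *Oprm1* (chr10:6758506-7038198, plus strand), the receptor for enkephalins and endorphin, was covered by 23, 29, 17 and 7 counts in the CNO and 23, 31, 12 and 20 counts in the vehicle replicates. Of its 8037 exon bases, 96 are shared with overlapping genes. At this depth the log2 fold change of -0.18 had a 95% interval of -1.15 to 0.79, the widest of the 10 receptors, and its adjusted p was 0.914. *Oprl1* (chr2:181715016-181720985, plus strand) had 36.4, 32.0, 32.1 and 33.5 CPM in the CNO and 39.9, 34.1, 37.2 and 34.3 CPM in the vehicle replicates. The log2 fold change of *Oprl1* was -0.12 (SE 0.0895, 95% interval -0.32 to 0.079, adjusted p = 0.817), with the smallest standard error of the 10.

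The receptors also varied between libraries within a group, and this variation was set against the marker index across the 8 libraries. Each receptor was compared by Pearson's r and Spearman's rho with two-sided exact permutation over all orders of the 8 libraries, adjusted over all 17495 genes. The marker index and the receptor levels come from the same libraries. For 3 of the 10 receptors the Pearson correlation passed an adjusted p of 0.05, a share close to the 28.7% of all genes. The r of these receptors lay at the 91.3 percentile of all genes for *Oprd1*, 3.05 for *Sstr3* and 12.1 for *Cckbr*. It was below 0 for 9 of the 10 receptors, against 51.0% of all genes. *Oprd1* was the only receptor with a positive r, 0.94 (rho 0.90, adjusted exact permutation p = 0.00803 for r and 0.0407 for rho). Its r was 0.85 over the 4 CNO libraries alone and 0.95 over the 4 vehicle libraries alone. Without vehicle replicate 1 and CNO replicate 4, the libraries farthest from the median of the index, it was 0.96. *Sstr3* followed the index in the opposite direction, with r = -0.89 (rho -0.98, adjusted exact permutation p = 0.0107 for r and 0.0120 for rho). Its r was -0.93 within the CNO libraries, -0.93 within the vehicle libraries and -0.86 without the 2 farthest libraries. *Cckbr* had r = -0.76 (rho -0.64, adjusted exact permutation p = 0.0484 for r and 0.220 for rho), with r of -0.92 within the CNO libraries, -0.66 within the vehicle libraries and -0.48 without the 2 farthest libraries. With 6 libraries no gene of the 17495 reached an adjusted exact permutation p under 0.05 (lowest 0.169), so that the values over 6 libraries stand as a description.

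**Figure D4:**
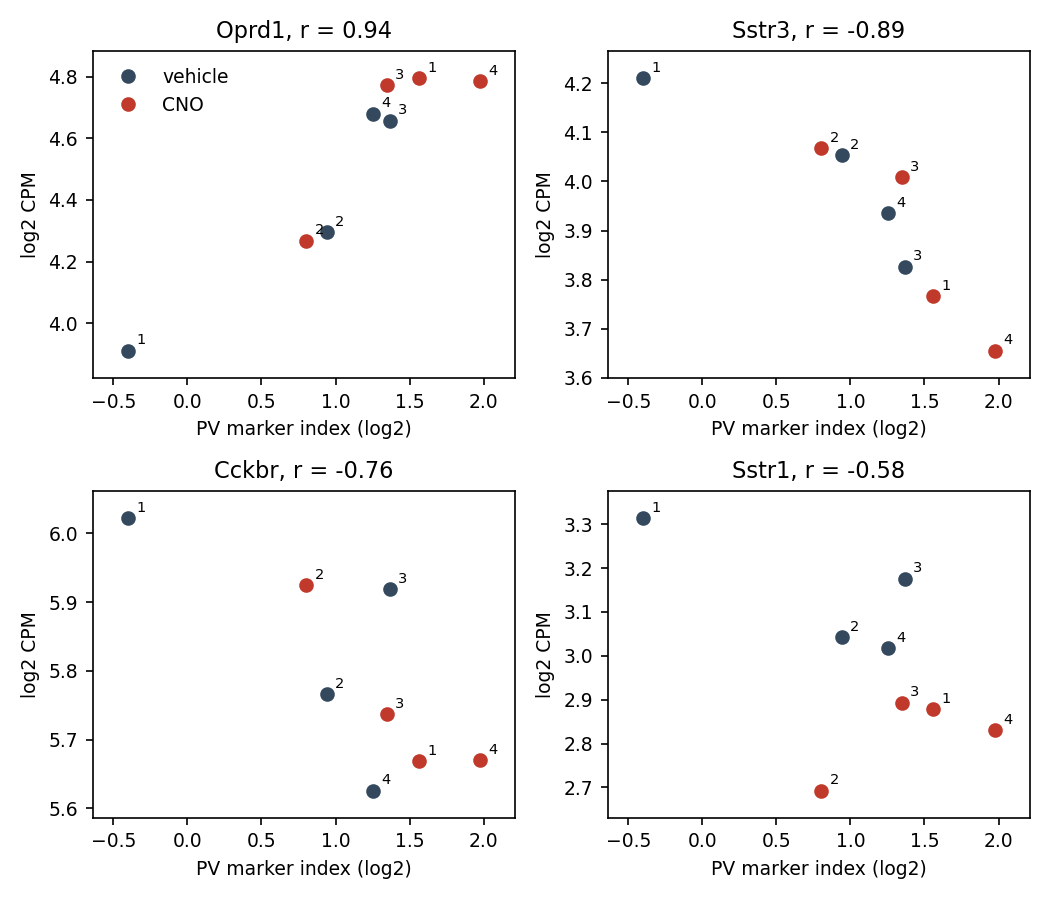
Log2 CPM of Oprd1, Sstr3, Cckbr and Sstr1 against the PV marker index (mean log2 CPM of 12 PV+ markers minus that of 12 pyramidal markers), 1 point per library with its replicate number. Oprd1 is higher and Sstr3 lower in libraries with a higher index, and CNO libraries lie below vehicle libraries for Sstr1.

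The other 7 receptors did not pass the threshold. *Vipr1*, *Sstr2*, *Npy1r* and *Oprm1* had r of -0.66, -0.66, -0.65 and -0.61, and without the 2 farthest libraries these were -0.44, -0.49, -0.039 and -0.64. Within the CNO libraries alone they were -0.95, -0.59, -0.80 and -0.86, and within the vehicle libraries alone -0.97, -0.63, -0.37 and -0.48. Both values of *Vipr1* lay below the -0.93 of *Sstr3* in each group. For *Sstr1*, *Sstr4* and *Oprl1* the sign depended on the 2 farthest libraries. The r of these receptors was -0.58, -0.24 and -0.51 over 8 libraries and 0.36, 0.23 and 0.61 over 6. It was 0.65, -0.52 and 0.49 within the CNO libraries and -0.77, -0.14 and -0.74 within the vehicle libraries. In vehicle replicate 1, the library with the lowest index, *Oprd1* differed from the mean of the other vehicle libraries by -0.63 on the log2 scale. The other 9 receptors were higher there, by 0.14 for *Sstr4* up to 0.35 for *Vipr1*. In the same comparison *Slc17a7* differed by 0.18 and *Pvalb* by -1.84. The share of all genes that were higher in this library is not given here. With the index as a covariate in the quasi-likelihood fit, the log2 fold change after CNO was -0.0012 for *Oprd1*, 0.019 for *Sstr3* and 0.015 for *Cckbr*, and 6 of 10 receptors were below 0. The index was higher in CNO than in vehicle on average, and its part in the receptor differences was not tested beyond this covariate. All 12 PV+ markers were higher (median log2 fold change 0.46), 1 of 12 at an unadjusted p under 0.05, against 1.44% of all genes. Of the pyramidal markers 11 of 12 were lower (median -0.13), 0 of 12 at an unadjusted p under 0.05, against 2.65% of all genes. Markers of other cell types were higher for 4 of 7 SST+ interneuron, 2 of 11 VIP+ and CCK+ interneuron and 2 of 8 astrocyte genes. They were higher for 0 of 6 oligodendrocyte, 0 of 6 microglial and 6 of 6 endothelial genes, against 8810 of all 17495 genes. At an unadjusted p under 0.05, 1 SST+ marker was higher, and 2 VIP+ and CCK+ markers and 1 microglial marker were lower. None of these markers passed an adjusted p of 0.05, and their part in the receptor differences was not tested.

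**Figure D5:**
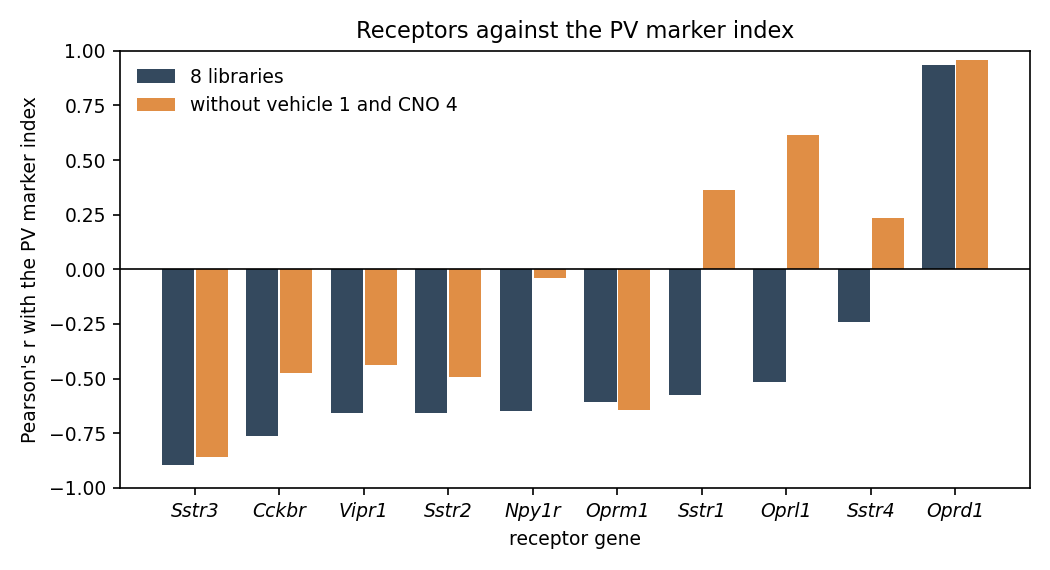
Pearson's r between the log2 CPM of each receptor and the PV marker index, for all 8 libraries and without vehicle replicate 1 and CNO replicate 4. Oprd1 is positive and Sstr3 and Oprm1 are below -0.6 in both sets, while Sstr1, Sstr4 and Oprl1 change sign.

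A wider list of 52 other neuropeptide receptors had 51 genes in the files, of which 30 passed the filter and 6 were at 0 in every library. None passed an adjusted p of 0.05, 24 of 30 had a log2 fold change below 0 (49.6% of all genes), and the median was -0.20. At an unadjusted p under 0.05, 0 were higher, against 1.44% of all genes, and 2 were lower, against 2.65%. For 22 of the 30 the r with the marker index was below 0, against 51.0% of all genes, and the part of the index in their differences was not tested. *Hcrtr1*, a receptor for orexins, had 1.96, 1.72, 1.26 and 1.04 TPM in CNO replicates 1 to 4 and 2.14, 2.01, 2.00 and 2.12 TPM in vehicle replicates 1 to 4, and its groups did not overlap (log2 fold change -0.51, SE 0.190, adjusted p = 0.817). *Oprk1*, the kappa-opioid receptor, had a log2 fold change of -0.44 (SE 0.196, adjusted p = 0.817), and its groups overlapped. *Mchr1*, a receptor for melanin-concentrating hormone, had -0.24 (SE 0.114, adjusted p = 0.817). In CPM its CNO libraries, at 11.8 to 14.5, lay below its vehicle libraries, at 14.6 to 18.7. In TPM its groups overlapped, with 16.4 in CNO replicate 2 and 15.4 in vehicle replicate 3. Groups without overlap in CPM and with CNO lower made up 1.63% of all genes. The most abundant genes of the wider list were *Ntsr2*, a neurotensin receptor, at 57.0 TPM, *Adcyap1r1*, the PACAP receptor, at 26.4 TPM and *Mchr1* at 16.2 TPM. The mean of *Ntsr2* exceeded that of *Cckbr*. Over 8 libraries the r with the marker index was -0.86 for *Ntsr2*, 0.86 for *Adcyap1r1* and -0.88 for *Mchr1*. *Ntsr2* was highest in vehicle replicate 1, at 80.4 TPM, and in CNO replicate 2, at 75.0 TPM.

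Of 12 genes that encode peptides for these receptors or their relatives, 10 were tested, and 5 had higher and 5 lower means after CNO. *Cort* encodes cortistatin, a ligand of the somatostatin receptors, and had 18.3, 11.1, 23.6 and 27.3 TPM in CNO replicates 1 to 4 against 5.04, 11.6, 13.2 and 9.83 TPM in vehicle replicates 1 to 4. Its log2 fold change was 1.08 (SE 0.349, unadjusted p = 0.0102, adjusted p = 0.817, quasi-likelihood test), CNO replicate 2 lay among the vehicle libraries, and its r with the marker index was 0.90. *Penk* encodes the enkephalin precursor, whose products bind the receptors of *Oprd1* and *Oprm1*. It had 25.4, 36.8, 37.9 and 49.99 TPM in the CNO and 63.4, 44.1, 69.8 and 77.6 TPM in the vehicle replicates. Its log2 fold change was -0.68 (SE 0.218, groups overlapping, unadjusted p = 0.0102, adjusted p = 0.817), and its r with the marker index was -0.12. *Pomc*, the precursor of endorphin, had a log2 fold change of 0.57 (adjusted p = 0.817), and its r with the marker index was 0.76. The most abundant peptide genes were *Cck*, *Sst* and *Npy* at 171, 141 and 126 TPM. Their log2 fold changes were -0.18 for *Cck*, 0.12 for *Sst* and 0.23 for *Npy* (adjusted p = 0.817, 0.864 and 0.817). Their r with the marker index was 0.035, 0.54 and 0.89 in the same order. The part of the index in the differences of the peptide genes was not tested.

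All 20 genes of a list of G proteins, inwardly rectifying potassium channels, arrestins and receptor kinases, through which these receptors signal, were tested. Their log2 fold changes were above 0 for 8 and below 0 for 12, with a median of -0.021, and none had an unadjusted p under 0.05. The genes with the smallest unadjusted p-values were *Arrb1*, an arrestin (log2 fold change 0.26, adjusted p = 0.817), *Adrbk2*, a receptor kinase (0.18, adjusted p = 0.817), and *Gnas*, the Gs alpha subunit (0.30, adjusted p = 0.817), by edgeR's quasi-likelihood test. Their r with the marker index was 0.85, 0.84 and 0.98 in the same order. In vehicle replicate 1 *Gnas* had 588 CPM, against 1045 to 1122 CPM in vehicle replicates 2 to 4. The part of the index in these differences was not tested. *Gnas*, *Gnao1*, the Go alpha subunit, and *Kcnj9*, a potassium channel subunit opened by Gi/o receptors, were the most abundant at 1516, 222 and 159.7 TPM.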

How the data were processed

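Ribosome-associated mRNA of PV+ interneurons was sequenced paired-end from 4 CNO and 4 vehicle samples, grouped and numbered by their labels, which name no pairing. RNA had an integrity number above 9. In a Nextflow pipeline the authors used Trim Galore for trimming, STAR for alignment to GRCm38, and Salmon with tximport for gene quantification. The versions of Trim Galore, STAR, Salmon and tximport and the use of strand are not given in the sources used here. The deposited estimated counts were neither normalised nor filtered, and the deposited TPM values, made by the authors, have the same sum in each sample.

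Counts were rounded and tested with edgeR 4.0.16 in R 4.3.3 (quasi-likelihood test, TMM, Benjamini-Hochberg). A gene was kept where fewer than 4 samples had under 10 counts. Standard errors are the coefficient divided by the square root of F, and CPM used TMM library sizes, with a prior count of 2 for log2 values. Levels between genes used TPM with a pseudocount of 1. Alternatives used limma 3.58.1 and DESeq2 1.42.0, and other normalisations, filters, blocks, covariates and left-out samples. Exact permutations, positions (GENCODE M21, GRCm38) and promoters (RefSeq) were computed in Python 3.11.15. The tests were tried on simulated data. No pair of libraries agreed within sampling noise. Where p-values measure spread, it is spread between pools of 4 brains. The 10 receptors and all gene lists were chosen with earlier results of these data known, and other genes were named by a rule: the 3 smallest p-values and the 3 highest mean TPM of each list.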

Additional observations from a re-analysis of the deposited data

Results flagged for a closer look

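Among the 20 groups of 4 libraries that the 10 receptors make, 1 held a library far from the other 3, and about 1 such group is given by chance. It was *Oprd1* in CNO replicate 2, the lowest of its group at a log2 CPM of 4.27, where the other CNO libraries lay between 4.77 and 4.80. CNO replicate 2 also had the lowest marker index of the CNO libraries, 0.80 against 1.35 to 1.97. Without this library the log2 fold change of *Oprd1* was 0.37. The part of the marker content in this value was not tested.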

How the results depend on the processing

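No receptor passed an adjusted p of 0.05 under any of the 22 alternatives, with the lowest adjusted p at 0.473. Over all genes the count past this threshold was 0 and became 15 with the likelihood ratio test and robust dispersion, 11 with DESeq2, 4 with no filter, 3 with a block of replicates 1 and 2 against 3 and 4, and 0 to 2 when 1 library was left out, the highest without CNO replicate 1. The number of receptors at an unadjusted p under 0.05 was 1, beside 716 of all 17495 genes. With library size only it became 3, beside 865 genes. It became 2 with limma on log2(TPM + 1), beside 940 genes, and 2 on log2(TPM + 0.1), beside 916 genes. Without 1 library it was 1 to 3, beside 330 to 1699 genes. It was 3 (*Sstr1*, *Sstr2* and *Npy1r*) without CNO replicate 3, beside 566 of 17709 genes. Without vehicle replicate 2 it was 2 (*Sstr1* and *Npy1r*), beside 678 of 17627 genes. Without CNO replicate 2 it was 1, *Sstr2* in place of *Sstr1*, beside 1699 of 17642 genes. *Sstr1*, *Sstr2*, *Npy1r* and *Oprl1* kept a log2 fold change below 0 under all 22. *Vipr1* turned to -0.0379 on log2(TPM + 1) and -0.0405 on log2(TPM + 0.1). With the PV marker index as a covariate *Sstr3* turned to 0.0187, *Cckbr* to 0.0150, *Oprd1* to -0.00122 and *Oprm1* to 0.146. Leaving out 1 library moved the log2 fold change of *Sstr4* over -0.131 to 0.0203 and of *Oprm1* over -0.452 to 0.0918, and the log2 difference of *Npy1r* over *Oprd1* across -0.0752 to 0.138. It moved the r with the marker index over -0.846 to 0.0195 for *Sstr1*, -0.489 to 0.0998 for *Sstr4* and -0.675 to 0.293 for *Oprl1*, each turning positive without vehicle replicate 1. Without the 2 farthest libraries these were 0.36, 0.23 and 0.61. The cause of these shifts was not tested.

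The replicate numbers are shared by the groups, and deviations of same-numbered samples correlated at 0.026, -0.030, 0.16 and 0.24. Between CNO and vehicle replicates 1 and 2 the correlations ran from -0.030 to 0.43, and between replicates 3 and 4 from 0.084 to 0.33. Across these sets they ran from -0.40 to -0.045. With a block for these sets 1193 genes had an unadjusted p under 0.05, against 716 without it (quasi-likelihood test). What the replicates of a set share was not tested. The fit with a replicate block called 0 genes and moved no receptor across the threshold. It gave 1 receptor at an unadjusted p under 0.05, beside 765 of all 17495 genes. Depth limited *Oprm1* most, with 7 to 31 counts a library.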
